A study of Mus musculus with 12 samples.

Results

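The 10 genes described here encode contractile and associated proteins of arterial smooth muscle: Acta2, Tagln, Myh11, Cnn1, Myl9, Des, Tpm2, Smtn, Lmod1, and Pln. They were chosen by name, with earlier results of these data known. All 10 matched an Ensembl gene of mouse GRCm38, and they stand among 54119 genes with a count, of which 19150 passed the filter on low counts and were tested. All 10 passed that filter in every comparison. RNA was sequenced from cerebral vessels isolated from wild type C57BL6 mice of both sexes, aged 8 to 12 weeks, after a single intraperitoneal injection. The control group received PBS, and 3 further groups received LPS, a bacterial endotoxin used to model systemic inflammation, at 10 mg/kg and were killed after 15 min, after 30 min, or after 4 h. Each of the 4 groups had 3 libraries, and each library pooled 1 male and 1 female, so a group stands for 6 mice and differences between single animals or sexes cannot be seen. When the PBS mice were killed is not given in the sources used here.

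Smooth muscle contracts when calcium binds calmodulin, myosin light chain kinase phosphorylates the regulatory light chain, and myosin pulls on filaments of smooth muscle actin. Tropomyosin, calponin, transgelin, smoothelin, and leiomodin bind the actin filaments and stabilize, elongate, or restrain them. Desmin intermediate filaments hold the contractile units in place, and phospholamban slows the return of calcium to the sarcoplasmic reticulum. In the brain these proteins are most abundant in the muscle cells around arteries and arterioles, where they set vessel diameter, and some are also made by pericytes. Many of their genes are controlled by serum response factor (SRF), which binds a short element called the CArG box, together with cofactors of the myocardin family.

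The start-site windows of Acta2 and Myl9 are shown because they held the only matches to the CArG box, the element through which SRF acts on contractile genes. Windows from 250 bases before to 50 bases after the RefSeq start site (GRCm38.p6) were listed for 8 of the 10 genes. Tagln and Myh11 were not among them. In the sequences, 10 bases to either side are in lower case and the box is in capitals. Distances are counted from the RefSeq start site. Ensembl places the start of Acta2 further upstream, at chr19:34255590, so the Acta2 boxes lie inside the Ensembl span of that gene. The Myl9 boxes lie before the Ensembl start of Myl9 too, at chr2:156775420. Which start is used in these vessels was not tested. The search asked for a full box, or for a box with 1 core base that is not A or T, and because the frame reads alike on both strands a single scan covered both. The box furthest from each start site is given first, on the strand of the gene, at chr19:34255438-34255467 and chr19:34255388-34255417 (minus strand) for Acta2 and at chr2:156775293-156775322 and chr2:156775355-156775384 (plus strand) for Myl9.
Acta2, 84 bases before the start site, 1 core mismatch: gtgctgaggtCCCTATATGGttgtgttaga
Acta2, 34 bases before the start site, 1 core mismatch: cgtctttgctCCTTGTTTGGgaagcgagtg
Myl9, 161 bases before the start site, full box: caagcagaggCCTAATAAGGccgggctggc
Myl9, 99 bases before the start site, 1 core mismatch: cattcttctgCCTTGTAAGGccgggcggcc

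Of 32851 windows of all genes, 1.63% held a full box, 9.98% held a full box or a box with 1 core mismatch, and 0.822% held at least 2 of either kind. The other 6 windows, of Cnn1, Des, Tpm2, Smtn, Lmod1, and Pln, held no match to these letters. A match describes the sequence and is not a binding site shown in these vessels.

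Levels between genes were compared in TPM, which divides by transcript length. In the PBS libraries the regulatory light chain gene Myl9 was the most abundant at a mean of 1235 TPM, followed by Acta2 at 897 TPM and Tagln at 757 TPM. Tpm2 stood at 421 TPM, Myh11 at 162 TPM, and Smtn at 109 TPM. The least abundant were Pln (77.6 TPM), Des (72.0 TPM), Cnn1 (38.3 TPM), and Lmod1 (24.7 TPM). Only Pln and Des overlapped among neighbours in this order. The order was not the same in every group. Tagln was placed above Acta2 in all 3 LPS groups, although their libraries overlapped at 15 min and at 4 h. Among the 4 h libraries, Des (61.4 TPM) lay above Smtn (28.9 TPM) and Pln (21.6 TPM), and the libraries of these genes did not overlap.

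Depth was 18.3 to 25.9 M fragments per library. The least counted of the 10 genes was Lmod1 at 4 h, with 253 to 276 estimated fragments in a library. Levels below are library-scaled counts (CPM, fragments scaled to a common library total) with TMM factors, which hold the bulk of genes level between libraries. Changes are log2 fold changes with standard errors (SE) from edgeR, with p adjusted by Benjamini-Hochberg over all 19150 genes. The test asks whether a change exceeds 1.5-fold, which is 0.58 in log2 units. Only genes past this test at 0.05 are said to have risen or fallen. In a bulk library, fewer smooth muscle cells and less RNA per smooth muscle cell cannot be told apart.

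**Figure D1:**
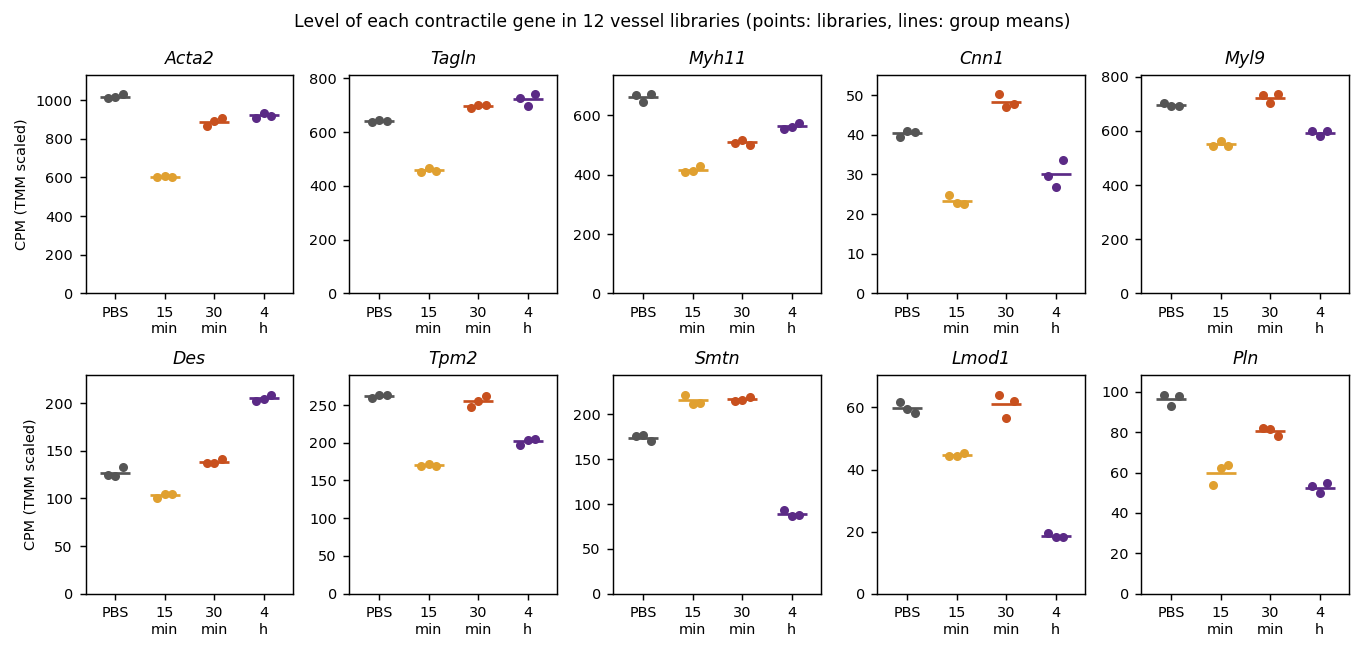
Level of each of the 10 genes in the 12 libraries, in CPM scaled with TMM factors, with each y axis starting at 0; points are libraries and lines are group means. By group mean, 7 genes were lowest at 15 min, and Smtn, Lmod1, and Pln were lowest at 4 h, whereas by library size alone, and in TPM, 9 genes were lowest at 4 h and only Des at 15 min.

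The actin and myosin genes were lower at 15 min than in PBS under every scaling tried, and the place of the 4 h libraries depended on it. With TMM factors the 4 h libraries lay above those of 15 min, and by library size alone they lay below. Acta2 encodes smooth muscle alpha-actin (ENSMUSG00000035783, chr19:34241090-34255590, minus strand) and was measured at 1010, 1014, and 1029 CPM in the PBS libraries and at 601, 608, and 601 CPM at 15 min. It fell by 40.7% (log2 fold change -0.75, SE 0.022, adjusted p = 7.7e-07). With TMM factors the 3 libraries of LPS 15 min lay far below every other library. At LPS 30 min the Acta2 level was 865, 890, and 909 CPM, and at 4 h it was 909, 936, and 919 CPM. These later libraries were all under the PBS libraries, with log2 fold changes of -0.20 (SE 0.022) and -0.14 (SE 0.022) that did not pass the 1.5-fold test. With library size as the only scaling, Acta2 was at 690 to 697 CPM at 15 min and 650 to 672 CPM at 4 h, and it fell at 4 h too (-0.85, adjusted p = 2.0e-11). The call at 15 min was made in each alternative fit and with each library left out.

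Myh11 encodes the smooth muscle myosin heavy chain, the motor protein of the thick filament (ENSMUSG00000018830, chr16:14194535-14291372, minus strand). It was at 670, 647, and 671 CPM in PBS, 408, 413, and 429 CPM at 15 min, 508, 517, and 501 CPM at 30 min, and 555, 560, and 576 CPM at 4 h. The groups did not overlap, and PBS was the highest. Myh11 fell by 37.1% at 15 min (log2 fold change -0.67, SE 0.025, adjusted p = 0.0090), whereas the log2 fold changes of -0.38 (SE 0.025) at 30 min and -0.23 (SE 0.025) at 4 h did not pass. Myh11 was by library size alone at 469 to 492 CPM at 15 min and 397 to 413 CPM at 4 h, where it fell (-0.94, adjusted p = 1.5e-12). Without LPS 15 min replicate 1 the adjusted p at 15 min was 0.072, and in limma without a filter on low values it was 0.16.

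Myl9, the regulatory light chain that is phosphorylated to start contraction (ENSMUSG00000067818, chr2:156775420-156781658, plus strand), passed the 1.5-fold test at no time with TMM factors. Its levels were 691 to 703 CPM in PBS, 545 to 562 CPM at 15 min, 703 to 735 CPM at 30 min, and 581 to 600 CPM at 4 h. The log2 fold change at 15 min was -0.33 (SE 0.024). Tpm2, the beta-tropomyosin that lies along the actin filament (ENSMUSG00000028464, chr4:43514711-43523765, minus strand), ranged from 259 to 264 CPM in PBS, 169 to 172 CPM at 15 min, 248 to 262 CPM at 30 min, and 197 to 205 CPM at 4 h. Its log2 fold change at 15 min, -0.62 (SE 0.027), lay just beyond the 1.5-fold limit and did not pass the test (adjusted p = 0.35). With TMM factors the LPS 15 min libraries of both genes were below all others. By library size alone the 4 h libraries were the lowest, at 417 to 430 CPM against 626 to 644 CPM at 15 min for Myl9 and at 141 to 147 CPM against 194 to 197 CPM for Tpm2, and both genes fell at 4 h (-0.93 and -1.08).

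The regulators of the thin filament did not follow a shared course. Cnn1 encodes calponin, which binds actin and slows the myosin motor (ENSMUSG00000001349, chr9:22099216-22109630, plus strand). Its levels were 39.4, 41.0, and 40.8 CPM in PBS and 24.7, 22.8, and 22.5 CPM at 15 min. At LPS 30 min they were 50.1, 47.0, and 47.8 CPM, and at 4 h they were 29.6, 26.9, and 33.7 CPM. The 4 groups did not overlap, with LPS 30 min the highest and LPS 15 min the lowest, though by library size alone 4 h was the lowest (19.3 to 24.2 CPM against 25.9 to 28.4 CPM at 15 min). Cnn1 fell at 15 min (log2 fold change -0.79, SE 0.065, adjusted p = 0.014) and then rose 2.07-fold from 15 to 30 min (log2 fold change 1.05, SE 0.065, adjusted p = 2.4e-06).

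The fall of Cnn1 at 15 min was close to the limit of the test. Its adjusted p was 0.051 without PBS replicate 2, 0.062 without LPS 15 min replicate 2, and 0.076 without LPS 15 min replicate 3. In DESeq2 it was 0.063, with an offset for transcript length it was 0.70, and in limma on the deposited gene table it was 1.0. The rise from 15 to 30 min passed in every alternative, with a log2 fold change from 0.91 to 1.14. By 4 h the Cnn1 log2 fold change against PBS was -0.43 (SE 0.068) and did not pass, and by library size alone Cnn1 fell (-1.13, adjusted p = 1.9e-08).

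Tagln, the actin-binding protein transgelin or SM22 alpha (ENSMUSG00000032085, chr9:45929619-45936058, minus strand), was at 638 to 644 CPM in PBS, 453 to 465 CPM at 15 min, 688 to 702 CPM at 30 min, and 696 to 740 CPM at 4 h. With TMM factors only the LPS 15 min libraries lay below PBS. No log2 fold change passed the 1.5-fold test, with -0.49 (SE 0.024) at 15 min, 0.12 (SE 0.024) at 30 min, and 0.17 (SE 0.024) at 4 h. With scaling by library size alone the later values were -0.04 and -0.53, so the direction at 30 min and 4 h depends on the scaling.

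Smtn encodes smoothelin, an actin-binding protein of differentiated, contractile smooth muscle (ENSMUSG00000020439, chr11:3517523-3540612, minus strand), and it was the only gene of the 10 that was higher at 15 min. It was at 176, 177, and 170 CPM in PBS, 222, 211, and 213 CPM at 15 min, 215, 217, and 219 CPM at 30 min, and 93.0, 87.0, and 88.0 CPM at 4 h. The libraries of 15 and 30 min overlapped each other and lay above PBS, and the 4 h libraries lay far below. In TPM the 30 min libraries (98.0 to 102.8 TPM) lay below those of PBS (103.6 to 111.4 TPM), so the direction at 30 min depends on the scale. The early log2 fold changes of 0.31 (SE 0.030) at both times did not pass the 1.5-fold test. By 4 h Smtn fell by 48.8% (log2 fold change -0.97, SE 0.033, adjusted p = 8.0e-11). Between 30 min and 4 h it fell by 58.8% (log2 fold change -1.28, SE 0.033, adjusted p = 9.1e-16).

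Lmod1 encodes leiomodin, which nucleates actin filaments in smooth muscle (ENSMUSG00000048096, chr1:135324807-135368065, plus strand), and it had the largest change of the 10 genes. Its level was 61.7, 59.6, and 58.3 CPM in PBS, 44.2, 44.2, and 45.5 CPM at 15 min, 64.1, 56.8, and 62.1 CPM at 30 min, and 19.5, 18.4, and 18.3 CPM at 4 h. The PBS and LPS 30 min libraries overlapped. By 4 h Lmod1 fell by 68.7% (log2 fold change -1.68, SE 0.061, adjusted p = 1.7e-14), and the fall from 30 min was of like size (-1.70, SE 0.061, adjusted p = 1.5e-14). The log2 fold change at 15 min was -0.42 (SE 0.050) and did not pass.

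Des encodes desmin, the intermediate filament protein of muscle (ENSMUSG00000026208, chr1:75360329-75368579, plus strand). The gene was at 124, 124, and 133 CPM in PBS, 101, 105, and 104 CPM at 15 min, 137, 137, and 141 CPM at 30 min, and 202, 205, and 209 CPM at 4 h. The 4 h libraries were above all others. Des rose 1.62-fold at 4 h (log2 fold change 0.69, SE 0.033, adjusted p = 0.0013). This rise depended on the scaling: by library size alone the log2 fold change was -0.01, with 144 to 155 CPM in PBS and 144 to 150 CPM at 4 h. It also missed the test with the length offset (0.65, adjusted p = 0.058), without the filter on low counts (0.64, adjusted p = 0.072), and in limma (0.65, adjusted p of at least 0.20).

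Pln encodes phospholamban, the inhibitor of the calcium pump of the sarcoplasmic reticulum (ENSMUSG00000038583, chr10:53337667-53345987, plus strand). It was at 98.6, 93.0, and 98.2 CPM in PBS, 54.0, 62.1, and 63.7 CPM at 15 min, 81.9, 81.4, and 78.2 CPM at 30 min, and 53.4, 49.7, and 54.8 CPM at 4 h. All LPS libraries were below PBS. At LPS 15 min the log2 fold change of -0.69 (SE 0.051) did not pass the 1.5-fold test (adjusted p = 0.13), though it did without LPS 15 min replicate 3 (-0.74, adjusted p = 0.042). By 4 h Pln fell by 45.5% (log2 fold change -0.88, SE 0.056, adjusted p = 1.4e-05).

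**Figure D2:**
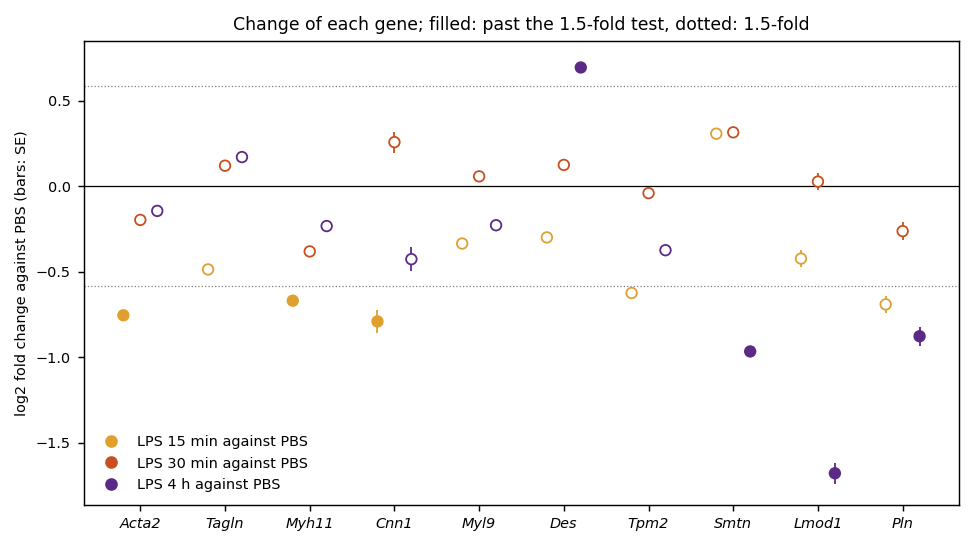
Log2 fold change of each gene against PBS at the 3 times, on the TMM scale, with bars for the SE; filled points passed the 1.5-fold test and dotted lines mark 1.5-fold. Acta2, Myh11, and Cnn1 passed at 15 min, no gene at 30 min, and Des, Smtn, Lmod1, and Pln at 4 h.

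At LPS 15 min, 3 of the 10 genes fell (Acta2, Myh11, and Cnn1) and none rose, where 4.18% of all tested genes passed, 3.31% higher and 0.872% lower. Against a null of no change, all 10 genes passed, 9 lower and Smtn higher, where 38.6% of all genes passed, 18.2% lower and 20.4% higher. The libraries of the 2 groups did not overlap for any of the 10 genes, which held for 49.3% of all genes. The median log2 fold change of the 10 genes was -0.56, against -0.0021 for all tested genes. The 10 genes were chosen with earlier results of these data known, so their place beside all genes is a description. Summed over the 10 genes, the level was 3754 to 3795 CPM in PBS and 2622 to 2664 CPM at 15 min.

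Some markers of other cells moved beside this difference at 15 min. Among 9 pericyte markers none passed the 1.5-fold test (median log2 fold change 0.045), and their summed level was 3737 to 3815 CPM in PBS and 3983 to 4001 CPM at 15 min. Among 7 fibroblast markers 2 collagen genes fell, Col1a1 (-0.94) and Col3a1 (-0.74), and the sum of the list was 507 to 537 CPM in PBS and 358 to 377 CPM at 15 min. Among 8 neuron markers 5 were above 0 and 3 below, with a median of 0.24, and 2 rose, Syt1 (0.70) and Slc17a7 (1.24). Stmn2 was lower, at 62.8 to 69.9 CPM against 83.2 to 86.8 CPM in PBS, but did not pass the 1.5-fold test (-0.38). The sum of the neuron list was 442 to 458 CPM in PBS and 589 to 608 CPM at 15 min, and by library size alone Syt1 did not pass (0.68, adjusted p = 0.10).

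Astrocyte and endothelial markers moved at 15 min too. Of 7 astrocyte markers 6 were below 0 (median -0.22), and Gfap, the intermediate filament gene of astrocytes, fell (-1.20, adjusted p = 6.1e-12) and rose from 15 to 30 min (0.93). The astrocyte sum was 834 to 858 CPM in PBS, 643 to 682 CPM at 15 min, and 868 to 878 CPM at 30 min, so like the sum of the contractile genes it was lowest at 15 min among these groups. Of 10 endothelial markers Cldn5 (-0.73) and Kdr (-0.79) fell and Slc2a1 (0.70) rose, with a median of -0.17 and a sum of 10970 to 11271 CPM in PBS and 11348 to 11481 CPM at 15 min. No marker of these 5 lists was at 0 in any group, and their part in the result was not tested. Of 10 further genes listed here as smooth muscle markers outside contraction, 2 fell, the adhesion receptor Mcam (-0.69) and the olfactory receptor Olfr558 (-0.90). The median was -0.48, and the sum was 695 to 709 CPM in PBS and 503 to 519 CPM at 15 min. Whether only smooth muscle makes these genes was not tested. Syt1, Slc17a7, Kdr, Slc2a1, Mcam, and Olfr558 were named after their values were seen.

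At LPS 30 min, none of the 10 genes passed the 1.5-fold test, where 4.58% of all genes did. Against no change 7 passed, Tagln, Cnn1, Des, and Smtn higher and Acta2, Myh11, and Pln lower, where 36.9% of all genes passed, 19.7% higher and 17.2% lower. Their values ran from -0.38 for Myh11 to 0.31 for Smtn, with a median of 0.042 against -0.010 for all genes. With scaling by library size alone the signs of Tagln, Myl9, Des, and Lmod1 turned, to values from -0.14 to -0.04. The median of all genes moves by -0.16 on the log2 scale under that scaling. For Tpm2 (log2 fold change -0.04, SE 0.027) and Lmod1 (0.03, SE 0.049) the libraries overlapped those of PBS.

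Skeletal muscle genes were high in the LPS 30 min libraries. Of 12 markers, 11 passed the 1.5-fold test, all higher (median log2 fold change 3.78), and their sum was 15.8 to 22.0 CPM in PBS and 228 to 247 CPM at 30 min. Skeletal muscle cells also express Des and Tpm2. Acta1, the skeletal muscle actin and a close paralog of Acta2, was at a mean of 3.03 TPM in PBS and 39.7 TPM at 30 min, far below Acta2 (636 TPM at 30 min). The part of these genes in the values of Des, Tpm2, and Acta2 was not tested.

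From 15 to 30 min, Cnn1 was the only gene of the 10 past the 1.5-fold test, where 4.65% of all genes passed and 2.69% were higher. Against no change 9 of the 10 were higher, where 37.4% of all genes passed and 19.2% were higher. Smtn was the exception (log2 fold change 0.0078, SE 0.030), and its libraries at the 2 times overlapped. The median of the 10 genes was 0.44. The 3 comparisons with PBS share the PBS libraries, and each comparison between times shares libraries with them, so none is a repeat of another.

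By 4 h after LPS, 4 of the 10 genes passed the 1.5-fold test, where 32.8% of all genes did, 19% higher and 13.8% lower. Lmod1, Smtn, and Pln fell and Des rose. The other 6 genes did not pass, with log2 fold changes from -0.43 (Cnn1) to 0.17 (Tagln). The median of the 10 genes was -0.30 against -0.0098 for all genes, and their sum was 3364 to 3444 CPM. Against no change all 10 passed, where 68.5% of all genes did. From 30 min to 4 h, Smtn and Lmod1 fell, where 28.6% of all genes passed and 11.8% were lower. Against no change 9 passed in that comparison, where 65.3% of all genes did, and by library size alone 6 fell, where 46.2% of all genes passed. Cnn1 did not pass in that comparison (-0.68, SE 0.068, adjusted p = 0.082) but did without LPS 4 h replicate 3 (-0.78, adjusted p = 0.0056).

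The 4 h values depend on how libraries are scaled. TMM factors averaged 1.17 in PBS and 0.717 at 4 h, and scaling by library size alone moved the median of all genes by -0.70 on the log2 scale. Under that scaling 8 of the 10 genes fell, all but Tagln and Des, where 54.6% of all genes passed, 44.7% lower and 9.96% higher. Lmod1, Smtn, and Pln fell under both scalings. By library size alone the median of the 10 genes was -1.01, against -0.71 for all genes. Their sum in TPM was 3773 to 3812 in PBS and 1800 to 1844 at 4 h. In each library the ratio of Des to Lmod1, which no scaling alters, was 2.76 to 3.16 in PBS, 3.09 to 3.27 at 15 min, 2.87 to 3.27 at 30 min, and 14.1 to 15.5 at 4 h in TPM. Des and Lmod1 had the highest and the lowest 4 h change of the 10 genes, so the pair came from these same values. That the 4 h ratios do not overlap the rest follows from this choice and is a description only. With 3 libraries against 3 an exact two-sided permutation test could also give no p below 0.10.

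**Figure D3:**
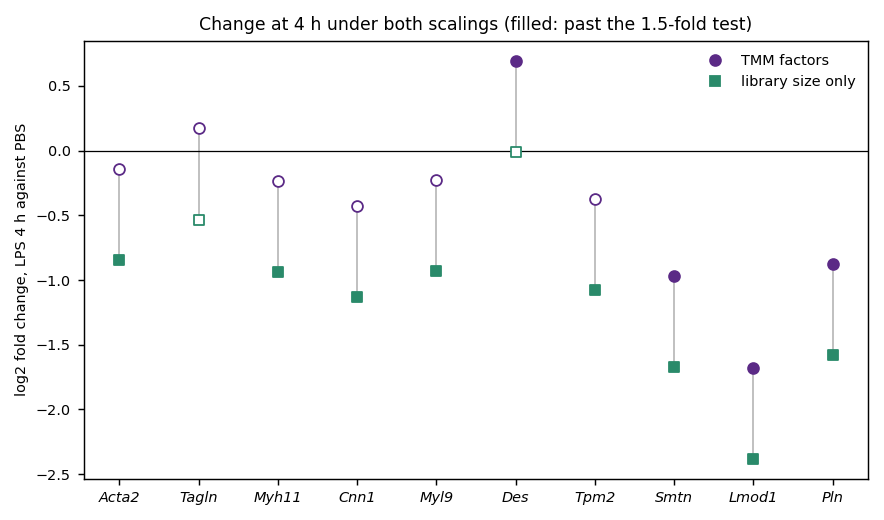
Log2 fold change at 4 h against PBS for each gene with TMM factors (circles) and with library size only (squares); filled symbols passed the 1.5-fold test. Every gene lies lower by library size, where Des is at -0.01 and 8 genes fell, and Lmod1, Smtn, and Pln are filled under both scalings.

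Relative to Acta2 in the same library, which also needs no scaling, the genes did not move in step. The log2 ratio of Smtn to Acta2 in TPM was -3.05 ± 0.056 in PBS, -2.06 ± 0.069 at 15 min, -2.65 ± 0.010 at 30 min, and -3.90 ± 0.074 at 4 h (mean ± SD, n = 3). For Lmod1 it was -5.18 ± 0.056 in PBS, -4.85 ± 0.022 at 15 min, and -6.72 ± 0.072 at 4 h. For Des it was -3.64 ± 0.054 in PBS and -2.81 ± 0.015 at 4 h, and for Pln -3.53 ± 0.049 and -4.32 ± 0.11. Myh11 was at -2.47 ± 0.028 in PBS, -2.38 ± 0.034 at 15 min, -2.66 ± 0.051 at 30 min, and -2.56 ± 0.038 at 4 h.

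Markers of other cells differed at 4 h as well. Past the 1.5-fold test, 19% of all tested genes were higher and 13.8% lower at 4 h, and by library size alone 9.96% and 44.7%. The 7 neutrophil genes tested, of 8, all rose, the eighth, Ly6g, had no count in PBS, and their sum was 7.08 to 8.74 CPM in PBS and 230 to 234 CPM at 4 h. Of the pericyte markers 3 of 9 fell, Anpep (log2 fold change -1.76), Atp13a5 (-0.83), and Higd1b (-0.68, named after its value was seen), with a median of -0.40 and a sum of 3411 to 3531 CPM. All 9 fell by library size alone, with a median of -1.10. Skeletal muscle markers summed to 36.8 to 46.1 CPM, with 9 of 12 higher and 1 lower, or 4 higher and 1 lower by library size alone. Smooth muscle markers outside contraction had a median of -0.26 and a sum of 676 to 696 CPM, and 1 of 10, Lmcd1, fell (-0.74), whereas by library size alone 8 of 10 fell and the median was -0.96. The part of these cells in the result was not tested.

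**Figure D4:**
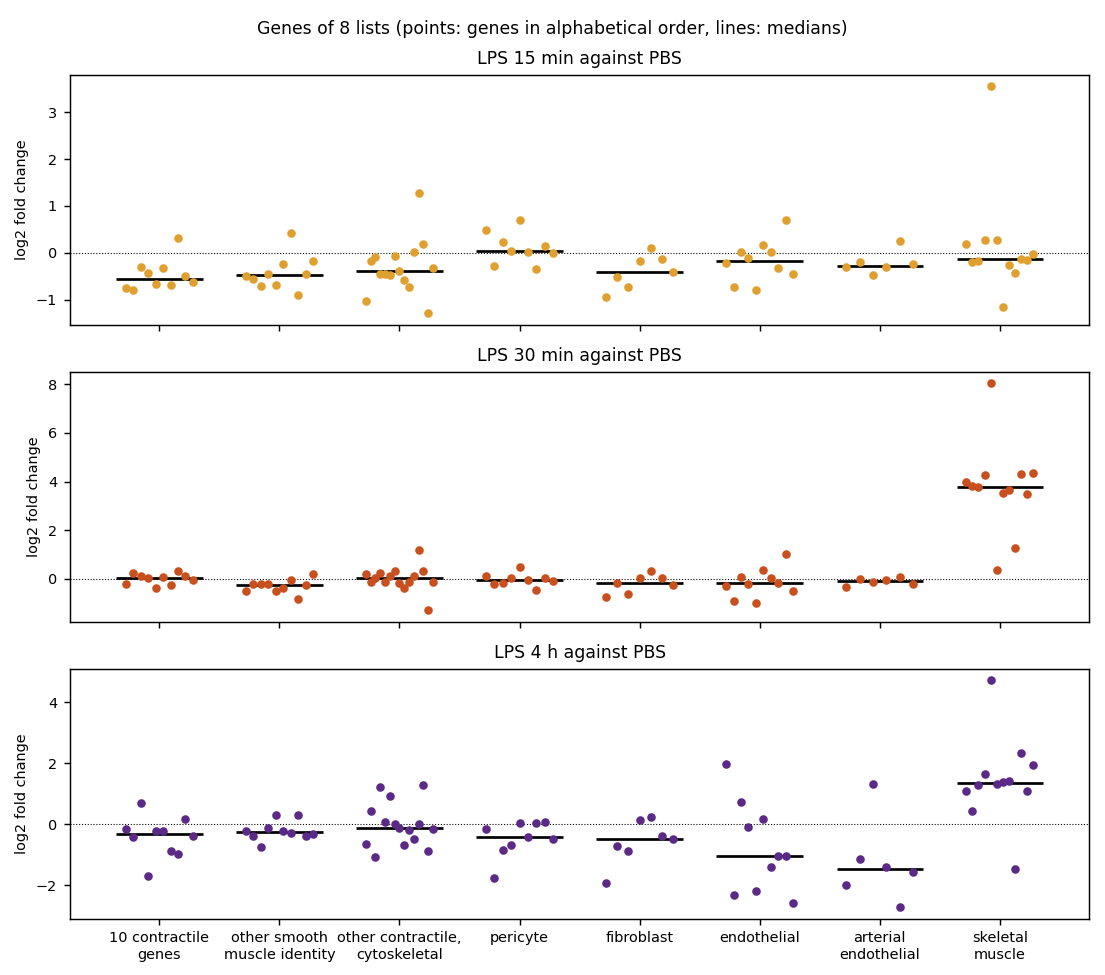
Log2 fold changes against PBS of the genes of 8 lists at the 3 times after LPS, on the TMM scale; points are genes in alphabetical order and lines are medians, and the y axes differ between the times. At LPS 15 min the median of the 10 contractile genes is -0.56 and that of 9 pericyte genes is 0.045, and at 30 min only the skeletal muscle list stands well above 0.

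The transcripts behind each gene were examined from the TPM that Salmon gives to each annotated transcript. A single transcript held over 94% of the TPM of Acta2, Tagln, Myl9, Des, and Tpm2 in the mean of each group, and Lmod1 has 1 annotated transcript. Myh11-201 held 66.3% to 72.8% of the Myh11 TPM and Cnn1-201 59.0% to 72.7% of the Cnn1 TPM. Pln-201, the main Pln transcript, held 79.5% to 95.1%. Minor Tpm2 transcripts differed at 30 min. Tpm2-202 was at 11.9 to 14.2 TPM there against 2.30 to 5.32 TPM in PBS, and Tpm2-201 at 0.698 to 2.76 TPM against 12.15 to 13 TPM. These differences were not tested.

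Smtn differed in its more abundant transcripts. Smtn-202, a protein-coding transcript of 3335 bases, was at 57.9, 58.4, and 55.4 TPM in PBS and at 91.8, 87.5, and 90.6 TPM at 15 min. Smtn-203, of 3117 bases with a coding sequence of 2769 bases against 2763, was at 28.6, 27.4, and 25.4 TPM in PBS and at 15.4, 14.5, and 11.9 TPM at 15 min. So one transcript was higher and the other lower in every library of 15 min than in every library of PBS. The share of Smtn-202 in the gene was 52.7% in PBS, 71.1% at 15 min, 70.4% at 30 min, and 53.3% at 4 h, and that of Smtn-203 was 24.5% to 25.7% in the PBS libraries and 9.36% to 11.98% in those of 15 min. These shares are estimates by Salmon for transcripts that share most of their sequence and were not tested.

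**Figure D5:**
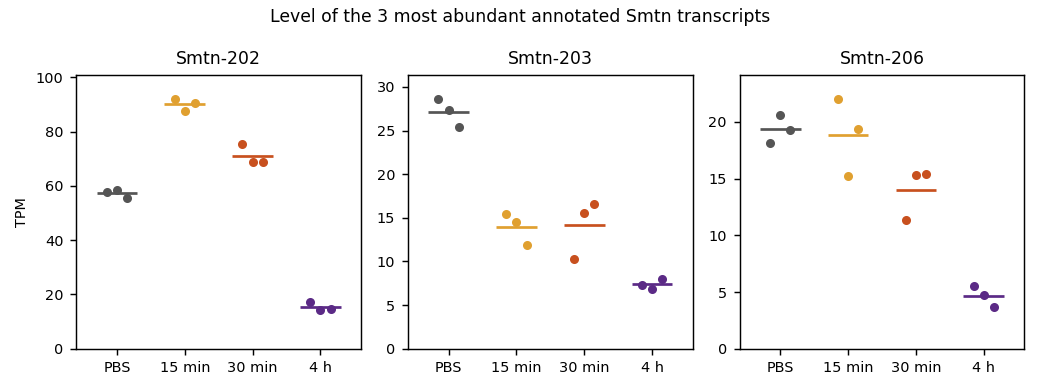
TPM of the 3 most abundant annotated Smtn transcripts in the 12 libraries, without TMM scaling and with y axes starting at 0; points are libraries and lines are group means. Smtn-202 is highest at 15 min (87.5 to 91.8 TPM), Smtn-203 is highest in PBS (25.4 to 28.6 TPM), and all 3 are lowest at 4 h.

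Some of the 10 genes share sequence with others. The library kit does not mark strand, so reads from genes on opposite strands can be told apart only by sequence outside the overlap. Gm48529 covers 62.4% of the exon bases of Tagln and was at 7.09 to 15.1 CPM over all libraries, beside 453 to 740 CPM for Tagln. Gm47644 covers 59.6% of those of Pln and was at 0.226 to 1.37 CPM. Better expressed genes overlap less: Pcsk7 covers 5.43% of the exon bases of Tagln and was at 36.2 to 56.9 CPM, and Cep85l covers 5.11% of those of Pln and was at 23.4 to 40.5 CPM, beside 49.7 to 98.6 CPM for Pln. Overlaps of Smtn with Gm11946 (16.3%) and Gm11947 (0.890%) and of Des with Gm15179 (5.86%) involved genes below 1 CPM. Actg2, the gamma actin of smooth muscle and a paralog of Acta2, was at 10.9 TPM in PBS, 5.37 TPM at 15 min, 10.0 TPM at 30 min, and 3.68 TPM at 4 h. Other actin genes were far more abundant and were higher than in PBS at each time. Actb was at a mean of 1297 TPM in PBS, 1665 TPM at 15 min, 2426 TPM at 30 min, and 1852 TPM at 4 h. Actg1 was at 765, 1140, 1798, and 954 TPM in the same order. The part of these paralogs in the values of Acta2 was not tested.

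Of 15 other contractile and cytoskeletal genes, 1 rose and 2 fell at 15 min, 1 rose and 1 fell at 30 min, and 3 rose and 2 fell at 4 h, with medians of -0.40, 0.048, and -0.11. Of all tested genes, 4.18% passed at 15 min, 4.58% at 30 min, and 32.8% at 4 h (19% higher and 13.8% lower). Synpo2, an actin-binding protein of muscle, fell at all 3 times, from 108 ± 2.0 CPM in PBS to 44.3 ± 2.2, 44.1 ± 0.97, and 59.3 ± 2.8 CPM (mean ± SD, n = 3). Actg2 fell at 15 min (-1.02), and the smoothelin-like gene Smtnl2 rose at 15 min (1.28) and 30 min (1.17), the latter not by library size alone (1.01, adjusted p = 0.17). At LPS 4 h the intermediate filament gene Synm (1.27), the LIM protein gene Csrp1 (1.21), and Mustn1 (0.94) rose, and calponin 2, Cnn2 (-1.06), fell beside Synpo2 (-0.87). By library size alone no gene of this list rose at 4 h and 10 fell, where 9.96% of all genes rose and 44.7% fell. Smtnl2, Actg2, and Mustn1 were named after their values were seen.

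Of 17 genes of calcium handling and myosin phosphorylation, 2 rose at 15 min, none passed at 30 min, and 1 rose and 3 fell at 4 h, with medians of -0.20, -0.10, and -0.014. The shares of all tested genes past the test were 4.18%, 4.58%, and 32.8% (at 4 h, 19% higher and 13.8% lower). By library size alone 1 of the list fell at 30 min, and at 4 h none rose and 10 fell, with a median of -0.72. Under that scaling 9.96% of all genes rose and 44.7% fell at 4 h. The 2 genes of this list that rose at 15 min were the calcium release channel gene Ryr2 (0.95) and the potassium channel gene Kcnma1 (0.90). At LPS 4 h the subunits of the nitric oxide receptor, Gucy1a1 (-1.03) and Gucy1b1 (-0.82), and Ppp1r14a, the inhibitor of myosin phosphatase (-0.78), fell. Rock2, a kinase that acts on myosin phosphatase, rose (1.07), and by library size alone it was at 0.37. Ryr2, Kcnma1, and Ppp1r14a were named after their values were seen.

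Of 15 genes that control transcription in smooth muscle, 1 rose and 2 fell at 15 min, 2 rose and 2 fell at 30 min, and 2 rose and 5 fell at 4 h. The shares of all tested genes past the test were 4.18%, 4.58%, and 32.8% (at 4 h, 19% higher and 13.8% lower). The counts for this list by library size alone were 1 higher and 4 lower at 30 min and 0 higher and 8 lower at 4 h. Under that scaling 9.96% of all genes were higher and 44.7% lower at 4 h. Srf, which encodes the factor that binds the CArG box, was at 40.1 ± 1.7 CPM in PBS, 46.9 ± 1.6 CPM at 15 min, 72.1 ± 2.6 CPM at 30 min, and 44.2 ± 1.6 CPM at 4 h. It rose at 30 min (log2 fold change 0.85, SE 0.049, adjusted p = 7.5e-05), though not by library size alone (0.68, adjusted p = 0.14), and fell from 30 min to 4 h (-0.70, SE 0.052, adjusted p = 0.016). Myocd, the gene of the cofactor myocardin, was at 2.73 to 4.16 CPM in the group means and passed no test. Mrtfa and Mrtfb encode related cofactors: Mrtfb fell at 4 h (-0.72, SE 0.029, adjusted p = 8.0e-05), and Mrtfa did not pass (0.63, SE 0.12, adjusted p = 0.35).

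Klf4 encodes a zinc finger factor that is known to repress contractile genes and is also made by endothelial cells. It rose from 162 ± 7.6 CPM in PBS to 480 ± 8.3 CPM at 15 min and 345 ± 2.4 CPM at 30 min, and fell to 38.4 ± 1.5 CPM at 4 h. In log2 units these changes against PBS were 1.57 (SE 0.030, adjusted p = 3.1e-18), 1.09 (SE 0.031, adjusted p = 4.8e-13), and -2.07 (SE 0.040, adjusted p = 1.6e-20). The forkhead gene Foxs1 fell at 15 min (-1.47) and LPS 30 min (-0.95) and rose at 4 h (1.21). Among SRF partners, Elk4 rose (1.34) and Elk3 fell (-1.52) at 4 h. The Notch target Heyl fell at all 3 times (-1.24, -1.21, and -1.06), and it was named after its values were seen. By library size alone the 4 h values of Foxs1 and Elk4 were 0.51 and 0.64.

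The 5 genes whose levels over the 12 libraries were most like the mean of the 10 genes, by Pearson correlation of log2 CPM, were Scd2 (0.99), Ptgds (0.97), Mfge8 (0.97), Enah (0.97), and Slc25a4 (0.96). They were taken from 10883 genes with a mean of at least 10 CPM. The points are 12 libraries in 4 groups, and all genes of a library share its scaling factor. Ptgds, which encodes a prostaglandin synthase, had log2 fold changes of -0.88 at 15 min, 0.26 at 30 min, and -0.94 at 4 h, and those of the other 4 genes lay between -0.27 and 0.056.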

How the data were processed

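RNA of isolated cerebral vessels was sequenced in 12 libraries (SMART-Seq v4, Nextera XT, paired-end). The authors quantified reads with Salmon 1.2.1, and the deposited estimated counts are fragments per transcript, not normalized. Salmon's TPM values, also deposited, divide by transcript length and sum to a fixed total in each library. The gene table deposited by the authors holds a normalized signal, counts divided by DESeq2 size factors and transcript length factors, and was used only in limma alternatives and checks. The build was GRCm38.p6.

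Of 140948 transcripts, 139852 joined GENCODE M21, and their estimated counts were summed to 54119 genes and rounded. Fits used edgeR 4.0.16 in R 4.3.3: filterByExpr (minimum count 10, total 15, share 0.7), TMM factors, and glmQLFit over all 12 libraries without covariates. The test was glmTreat against at most 1.5-fold, and glmQLFTest against no change, with Benjamini-Hochberg adjustment over 19150 genes at 0.05. Each SE was taken as |log2 fold change| / √F of the quasi-likelihood test. The script was tested on simulated data. Groups came from the sample records. Libraries with the same number in different groups did not deviate together (18 pairs, correlations from -0.049 to 0.068), so numbers were not taken as a pairing. Whether libraries came from separate isolations beyond separate pools of mice is not given. The variance between replicates was at the median gene 2.19 to 2.87 times what counting alone gives. The common biological coefficient of variation, the spread between replicates beyond counting, was small at 0.052, and the SE and p values rest on it. The 10 genes and all marker and pathway lists were chosen with earlier results of these data known. From each list were named at most the 2 called genes with the largest rise and the 2 with the largest fall at LPS 4 h, besides Srf, Myocd, Mrtfa, Mrtfb, and Klf4, and the few names given outside this rule were chosen after their values were seen. Genes most like the 10 were ranked by correlation with the mean of their centred log2 (CPM + 0.5). Alternatives were DESeq2 1.42.0, other scalings, filters, and fold limits, a length offset, the compared groups alone, a replicate block, limma 3.58.1 on log2 of the gene table plus 1 or 10, and each library left out.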

Additional observations from a re-analysis of the deposited data

Results flagged for a closer look

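Of the 10 genes, 3 passed the 1.5-fold test between consecutive times after LPS, in edgeR with adjusted p over all genes. Of all genes, 4.65% passed it from 15 to 30 min and 28.6% from 30 min to 4 h. Against no change 9 of the 10 passed in each of these comparisons, where 37.4% and 65.3% of all genes did. Cnn1 was higher at 30 min than at 15 min by 1.05 on the log2 scale (adjusted p = 2.4e-06), with all 3 libraries of 30 min above all 3 of 15 min. Smtn differed from 30 min to 4 h by -1.28 (adjusted p = 9.1e-16) and Lmod1 by -1.70 (adjusted p = 1.5e-14), also with no overlap of libraries. These are the genes that passed the test, so their lack of overlap is a description and adds no support. The share of all genes without overlap is not given for these comparisons. All 3 differences passed the 1.5-fold test in every alternative tried. No cause of these differences was tested.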

How the results depend on the processing

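Of the 10 genes, 3 passed the 1.5-fold test at LPS 15 min, 0 at LPS 30 min, 4 at LPS 4 h, 1 from 15 to 30 min, and 2 from 30 min to 4 h. Without a fold limit the counts were 10, 7, 10, 9, and 9. With library size only they were 8 at LPS 4 h and 6 from 30 min to 4 h, and in limma on the gene table plus 1 without a filter 1 at LPS 15 min. With each library left out in turn the counts ranged from 2 to 3, 0 to 0, 4 to 4, 1 to 1, and 2 to 3. With the replicate number as a block the counts were 3, 0, 4, 1, and 2, and no call changed.

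Signs turned with library size only for Tagln (-0.045), Myl9 (-0.11), Des (-0.040), and Lmod1 (-0.14) at LPS 30 min, for Tagln (-0.53) and Des (-0.01) at LPS 4 h, for Smtn (-0.13) from 15 to 30 min, and for Acta2 (-0.49), Tagln (-0.49), and Myh11 (-0.39) from 30 min to 4 h. That scaling shifts all genes down, as its construction implies. Smtn from 15 to 30 min was also at -0.034 with the length offset and -0.030 in the 3 limma fits, and at -0.0067 to 0.029 with a library left out. Lmod1 at LPS 30 min was at -0.010 to 0.077 with a library left out. The cause was not tested. Of 550 gene values under the other settings 477 kept direction and side of the threshold, 11 lost the call, 48 gained it, and 14 changed sign. These settings include the test without a fold limit, which asks a different question and whose higher counts are given above. The gained calls are therefore not a measure of how the 1.5-fold test depends on processing. With a library left out 291 of 300 were kept. Depth limits Cnn1 and Lmod1 most among the 10 genes, as the least counted, and 3 libraries a group limit every comparison.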

Other observations

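Genes in lists of further cell types passed the 1.5-fold test at LPS 4 h, on the TMM scale. Of all tested genes, 19% were higher and 13.8% lower by that test, and no list was tested against these shares. Of 10 endothelial markers 2 rose, Cdh5 and Esam, and 6 fell, among them Cldn5 (2362 ± 71 CPM in PBS and 475 ± 4.6 CPM at LPS 4 h) and Tek (516 ± 2.9 and 86.4 ± 2.8 CPM), with a median log2 fold change of -1.05. Of 6 arterial endothelial markers 1 rose, Gja4, and 5 fell, with a median of -1.47. Among 7 astrocyte markers Gja1 and Gfap rose, 3 of 7 fibroblast, 3 of 8 neuron, 2 of 6 oligodendrocyte, and 2 of 6 microglia markers fell, and of 3 cardiac muscle markers tested, out of 6, Tnni3 rose. By library size alone 1 endothelial marker rose and 7 fell (median -1.75), and Esam was at 0.029. No arterial endothelial marker rose and 5 fell, with Gja4 at 0.60 (1.5-fold test, adjusted p = 0.23). On that scale 1 astrocyte marker rose and 2 fell, and 5 fibroblast, 8 neuron, 4 oligodendrocyte, and 6 microglia markers fell. Gfap, which passed the 1.5-fold test with TMM factors only narrowly (adjusted p = 0.04995), was at -0.056. Under that scaling 9.96% of all tested genes were higher and 44.7% lower.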
